A study of Mus musculus with 6 samples.

Results

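The genes described here are Atf4, its relatives Atf3, Atf5 and Ddit3, and the targets Trib3, Sesn2, Asns, Chac1, Ppp1r15a and Psat1, which belong to the integrated stress response. They were taken by gene name, but the set was chosen with earlier results of these data known. On the array, 9 of the 10 genes carried their symbol as the gene name. Ppp1r15a was listed under its older symbol Myd116 and was matched through the accession of its probe. The 10 genes were measured by 12 of 41174 probes and make up 10 of the 15416 genes tested. Atf5 and Ppp1r15a lie on chromosome 7. All 12 probes were well above background on all 6 arrays, so all 10 genes passed the filter on dim probes.

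The RNA came from 4T1.2 cells, a BALB/c mouse line of mammary carcinoma cells, grown without a stimulus. Both groups had been infected with the pMSCV retroviral vector and selected with puromycin. The vector carried IRF7, an interferon regulatory factor that switches on type I interferons, in the first group, and no insert (the base vector) in the second. Clones were raised from single cells and then mixed, so each group is 1 pooled population. Each group had 3 arrays. The series' design text speaks of 3 independent experiments, and the labels do not say which arrays share an experiment. The p-values measure the spread between cultures of 1 pooled population and not between separately made lines.

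The integrated stress response begins when a kinase phosphorylates the alpha subunit of the translation initiation factor eIF2. Bulk translation then slows, while the mRNA of Atf4, a basic leucine zipper transcription factor, is translated more. Atf4 and its partners raise genes for amino acid supply, for feedback on the pathway and, when stress lasts, for cell death. The arrays measured RNA, so neither the phosphorylation of eIF2 nor the amount of Atf4 protein was seen.

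Between 54.3 and 56.8% of the probe spots were well above background on the base vector arrays, and between 56.8 and 59.7% on the IRF7 arrays. Levels are the log2 of the processed signal minus the array's own 75th percentile, so a level of 0 is that percentile, and a difference of 1 between levels is a 2-fold change. Levels of different probes cannot be compared. Irf7 itself stood 4.28 higher in the IRF7 arrays (SE 0.049, 19.4-fold, limma adjusted p 3.18e-07), as the labels say. Of the epithelial markers Krt8, Krt18, Krt19, Epcam and Cdh1, 4 of 5 were detected and Krt19 was above background on no array. The leukocyte marker Ptprc was above background on at most 1 array and Itgam on 0.

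To show what was read, the probes of Atf4 and of Ddit3 are given as 60 bases of the mRNA strand, as the array files hold them. On the files' mouse build mm7, the Atf4 probe lies at chr15:80341130-80341189. The Ddit3 probe lies at chr10:126796858-126797161, a stretch of 304 bases for a probe of 60 bases, so its target is split in the genome. Both are on the plus strand. The other probes that are not placed elsewhere in the text lie at chr1:190724174-190724233 (Atf3), chr6:7628080-7628139 (Asns) and chr19:15606408-15606467 (Psat1), on the minus strand, and at chr2:119095103-119095162 (Chac1), on the plus strand.
Atf4 probe: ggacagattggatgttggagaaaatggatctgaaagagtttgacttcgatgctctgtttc
Ddit3 probe: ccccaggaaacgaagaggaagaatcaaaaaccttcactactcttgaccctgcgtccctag

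Promoter sequence was not used to choose the genes, although Atf4 targets are known in part through the element that Atf4 binds, so its matches are no independent evidence. Windows from 250 bases before to 50 after each start (RefSeq, GRCm38.p6) were searched on both strands for TGATGNAA, the core of the C/EBP-ATF response element that Atf4 dimers bind, and for GAAA, any 2 bases and GAAA again, the core of the interferon-stimulated response element that interferon regulatory factors bind. All 10 genes had a window, 12 in all. TGATGNAA was present in 3.97% of 32851 windows over all genes, and in those of 4 of the 10 genes, Atf3, Chac1, Asns and Trib3. Shares of genes, here and below, are not the same measure as shares of windows, as a gene can have more than 1 window. The interferon core was present in 3.44% of all windows and in those of 1 of the 10 genes, Ppp1r15a, and no window of these genes held both. The matches are printed below in the direction of the gene, with the matching bases in capitals, because 3 of the 4 genes with TGATGNAA fell and the fourth, Atf3, rose. For Atf3 (chr1:191183410-191183469, minus strand) the match began 110 bases before the start, for Chac1 (chr2:119351023-119351082, plus strand) 193 bases before it and for Asns (chr6:7693210-7693258, minus strand) 23 bases before it. For Trib3 (chr2:152344028-152344057, minus strand) it began 14 bases after the start. For Ppp1r15a (chr7:45526453-45526514, minus strand) the interferon core began 220 bases before the start. These are matches of letters and say nothing of binding.
Atf3: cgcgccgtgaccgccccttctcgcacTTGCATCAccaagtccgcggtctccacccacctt
Chac1: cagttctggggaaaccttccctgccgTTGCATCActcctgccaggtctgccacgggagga
Asns: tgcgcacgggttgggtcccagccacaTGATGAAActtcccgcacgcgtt
Trib3: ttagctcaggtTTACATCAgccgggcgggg
Ppp1r15a: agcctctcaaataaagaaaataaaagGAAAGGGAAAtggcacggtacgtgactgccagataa

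The IRF7 cells had lower RNA of most of these genes. Of the 10, 8 were lower, 1 (Atf3) was higher and 1 (Psat1) did not pass the threshold of 0.05 (limma, Benjamini-Hochberg adjusted over all genes tested). Over the whole array 61% of genes passed, 29.1% as lower and 31.9% as higher, so a pass alone says little here. Chac1, Sesn2 and Atf5 were at least 2-fold lower, 3 of the 10 genes, against 2.57% of all genes. Ddit3 and Trib3 sat on that limit at 1.99-fold, so the count moved with small shifts. It was 5 with quantile normalization, with median centring or without IRF7 replicate 1, 4 without base vector replicate 2, 2 without base vector replicate 3 or IRF7 replicate 2, and 0 without scaling. The median log2 change of the 10 genes was −0.80, against 0.03 over all genes. The groups of arrays did not overlap for 9 of the 10 genes, against 67.8% of all genes. The SD between the 3 arrays of a group was 0.015 to 0.12 over the 12 probes, with a median of 0.038.

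**Figure D1:**
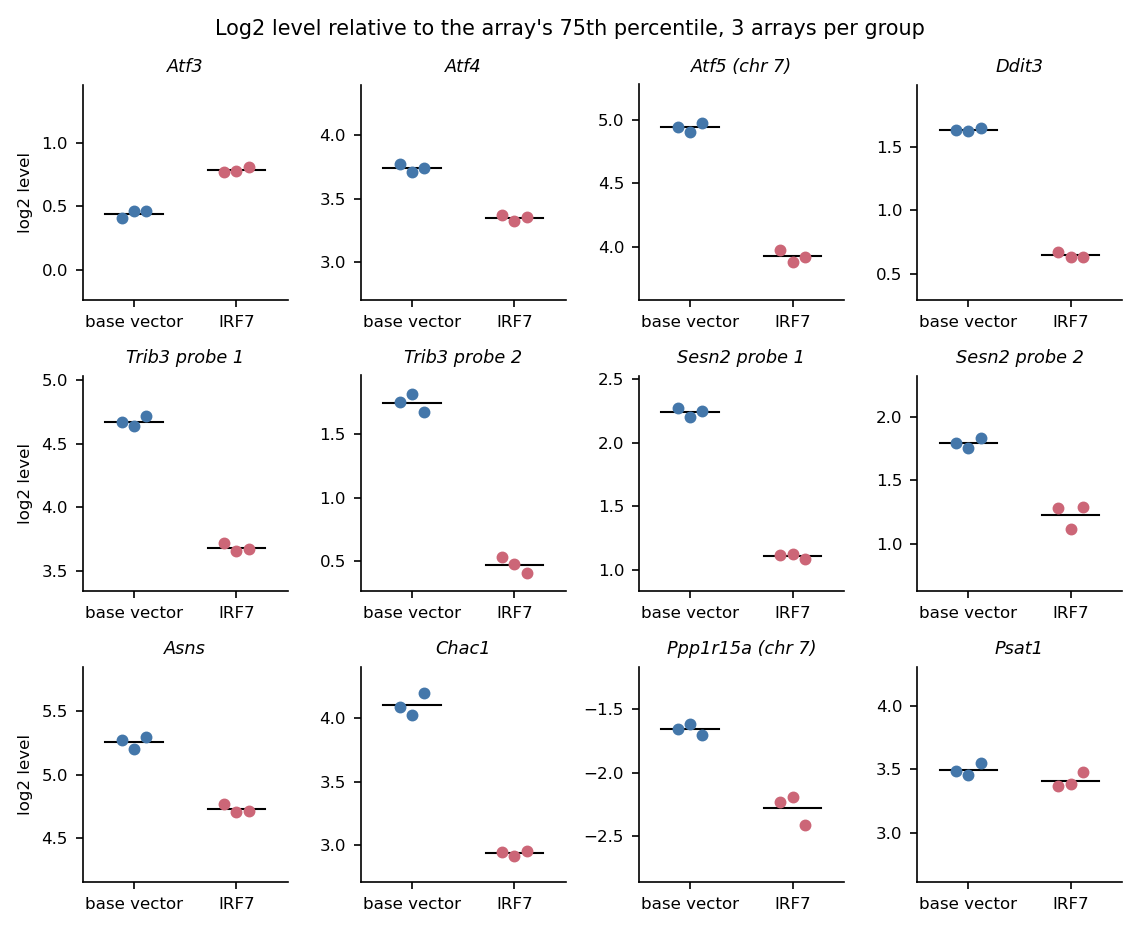
Log2 level relative to the array's 75th percentile (vertical axis, 1 panel per probe, all panels spanning the same range) for the 3 base vector and 3 IRF7 arrays; points are arrays and lines are group means. The groups are apart in every panel but that of Psat1, and the IRF7 arrays are the higher ones only for Atf3.

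Among the transcription factors, Atf4, the centre of the response, had levels of 3.78, 3.71 and 3.74 in the base vector arrays and 3.37, 3.32 and 3.35 in the IRF7 arrays. Every IRF7 array was below every base vector array. Atf4 fell by 0.39 (SE 0.032, 1.31-fold lower, limma adjusted p 0.000166). The size and the call of this gene depended on the scaling between arrays: without any scaling its log2 change was −0.19 and the adjusted p 0.121. The processed signals before scaling were 17684, 14998 and 15668 against 13354, 13921 and 14916, and the 75th percentiles by which they were scaled were 1148 to 1291 with the base vector and 1293 to 1458 with IRF7.

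Ddit3, also called CHOP, is a leucine zipper factor that Atf4 induces and that promotes cell death under lasting stress. Its levels were 1.63, 1.62 and 1.65 in the base vector arrays and 0.67, 0.63 and 0.63 in the IRF7 arrays. Within each group the arrays lay close together, and the groups were far apart. Ddit3 fell by 0.99 (SE 0.028, 1.99-fold lower, limma adjusted p 4.55e-06). Its processed signals, before any scaling, were 3999, 3533 and 3676 against 2061, 2155 and 2260, and did not overlap either.

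Atf5 is a close relative of Atf4 whose mRNA is likewise translated more when eIF2 is phosphorylated. It had levels of 4.94, 4.91 and 4.98 in the base vector arrays and 3.97, 3.88 and 3.92 in the IRF7 arrays. All IRF7 arrays were about 1 unit lower. The fall was 1.02 (SE 0.037, 2.02-fold lower, limma adjusted p 9.95e-06).

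Atf3, a stress-induced repressor of the same family, went the other way. It had levels of 0.40, 0.46 and 0.46 in the base vector arrays and 0.77, 0.78 and 0.81 in the IRF7 arrays. All 3 IRF7 arrays were higher than all base vector arrays. Atf3 rose by 0.34 (SE 0.031, 1.27-fold higher, 95% interval 0.27 to 0.42, limma adjusted p 0.000259). It was the only gene of the 10 that was higher, under each of the 20 settings run, with a log2 change of 0.30 to 0.54.

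Trib3 is a pseudokinase that Ddit3 and Atf4 induce and that holds back Atf4 in turn. Its brighter probe read 4.67, 4.64 and 4.72 in the base vector arrays and 3.72, 3.66 and 3.67 in the IRF7 arrays. The groups did not overlap, and Trib3 fell by 0.99 (SE 0.034, 1.99-fold lower, limma adjusted p 8.63e-06). The second probe read 1.76, 1.82 and 1.68 against 0.53, 0.48 and 0.41. It was again lower in all IRF7 arrays, by 2.42-fold (log2 change −1.27, SE 0.053, limma adjusted p 1.92e-05 over all 23522 probes kept, of which 28.1% were lower).

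Ppp1r15a encodes GADD34, the stress-induced subunit that brings a phosphatase to eIF2 and so ends the response. Its levels were −1.66, −1.62 and −1.70 in the base vector arrays and −2.23, −2.19 and −2.41 in the IRF7 arrays. All IRF7 arrays were lower, with more spread among them than for most of the other genes. Ppp1r15a fell by 0.62 (SE 0.065, 1.53-fold lower, limma adjusted p 0.000474).

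Sesn2, a sestrin that senses leucine and restrains mTORC1, was lower by both of its probes, but not by the same amount. The brighter probe read 2.27, 2.20 and 2.25 in the base vector arrays and 1.12, 1.12 and 1.08 in the IRF7 arrays. The groups did not overlap, and the fall was 1.14 (SE 0.031, 2.20-fold lower, limma adjusted p 4.18e-06). The second probe read 1.80, 1.76 and 1.84 against 1.28, 1.11 and 1.29. It too was lower in every IRF7 array, but by 1.48-fold (log2 change −0.57, SE 0.058, limma adjusted p 0.000497 over all probes kept).

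The probes of a gene share their RNA and are not replicates, but their difference within an array can be compared between groups. For Sesn2 the brighter probe stood 0.41 to 0.48 above the second with the base vector and −0.21 to 0.01 with IRF7, a difference of −0.57 in log2 change. For Trib3 the gap went from between 2.82 and 3.04 to between 3.18 and 3.26, a difference of 0.28. Neither range overlapped between groups, and the exact two-sided permutation p was 0.1 for each, the smallest that 3 arrays against 3 can give. On mm7 the probes of Sesn2 lie at chr4:131870492-131870551 and chr4:131871376-131871435, and those of Trib3 at chr2:152078476-152078535 and chr2:152079146-152079205, all on the minus strand, so the brighter probe of each pair is nearer the 3′ end.

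Chac1, an enzyme that breaks down glutathione, showed the largest fall among the probes that stand for a gene. Its levels were 4.09, 4.03 and 4.20 in the base vector arrays and 2.95, 2.91 and 2.96 in the IRF7 arrays. The IRF7 arrays were more than 1 unit below the lowest base vector array. Chac1 fell by 1.17 (SE 0.050, 2.24-fold lower, limma adjusted p 1.80e-05). The processed signals were 21962, 18733 and 21549 against 9996, 10492 and 11312.

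Asns, which makes asparagine from aspartate, had levels of 5.28, 5.20 and 5.30 in the base vector arrays and 4.77, 4.70 and 4.72 in the IRF7 arrays. The groups did not overlap. Asns fell by 0.53 (SE 0.039, 1.44-fold lower, limma adjusted p 0.000122).

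Psat1, an aminotransferase of serine synthesis, did not pass. It had levels of 3.49, 3.45 and 3.55 in the base vector arrays and 3.37, 3.38 and 3.47 in the IRF7 arrays. The highest IRF7 array was above the lowest base vector array. The log2 change was −0.09 (SE 0.044, 95% interval −0.19 to 0.02, limma adjusted p 0.14). After quantile normalization it was −0.16 with an adjusted p of 0.0106, and without scaling it was 0.11 with an adjusted p of 0.381, so neither a call nor a direction is given for this gene.

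The falls came in unequal sizes. Chac1, Sesn2, Atf5, Trib3 and Ddit3 changed by −1.17 to −0.99, with 95% intervals that together span −1.29 to −0.91. Ppp1r15a, Asns and Atf4 changed by −0.62 to −0.39, with intervals from −0.78 to −0.32. For the probes that stand for a gene, the intervals of the 5 larger falls thus lie below those of the 3 smaller ones. The second probe of Sesn2, at −0.57 with an interval of −0.71 to −0.42, lies among the smaller falls, and the mean of its probes gives −0.85. The differences between genes were not tested.

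**Figure D2:**
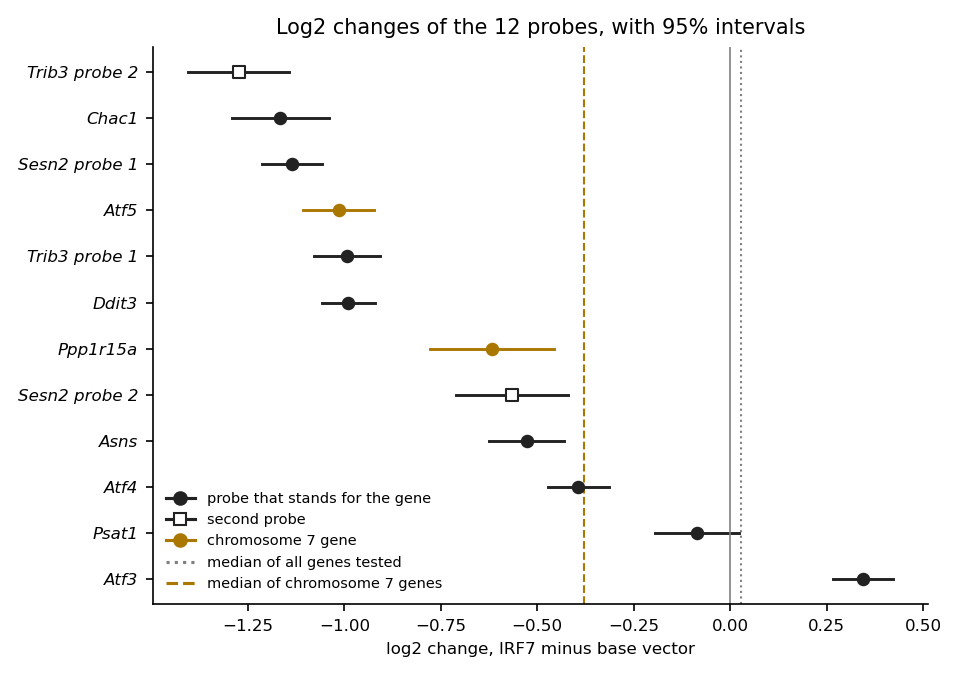
Log2 change, IRF7 minus base vector (horizontal axis), of the 12 probes with 95% intervals from limma; filled circles stand for the gene, open squares are second probes (fitted over all probes), and ochre marks chromosome 7. All but Psat1 and Atf3 lie wholly below 0; the dotted line is the median of all genes (0.03) and the dashed line that of chromosome 7 genes (−0.38).

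Slide and group were partly mixed. Base vector replicate 1 shared slide 1 and its scan with all 3 IRF7 arrays, while base vector replicates 2 and 3 were on slide 2. With slide as a block, or on slide 1 alone, where a single base vector array is compared, the fit rests on the same contrast and gives the same log2 changes; the lone array is then assumed to vary like the IRF7 arrays. Chac1 was then at −1.15, Sesn2 at −1.17, Atf5 at −1.02, Trib3 and Ddit3 at −0.99, Ppp1r15a at −0.62, Asns at −0.54, Atf4 at −0.43 and Atf3 at 0.38. With slide as a block these 9 genes kept a limma adjusted p of at most 0.00735, Ppp1r15a having the highest. There 8 of them were again lower, against 22.5% of all genes. Psat1 was at −0.08, with an adjusted p of 0.414 with slide as a block and 0.368 on slide 1 alone.

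Chromosome 7 as a whole was lower in the IRF7 cells, and both chromosome 7 genes of the response lie on it close together, 0.713 Mb apart on mm7 (Atf5 at chr7:40986870-40986929, Ppp1r15a at chr7:41699940-41699999). The probe of Irf7 is on the same chromosome, at chr7:137682028-137682378. Of 1135 chromosome 7 genes tested, 757 were lower, which is 66.7%, and 83 were higher, with a median log2 change of −0.38. Genes elsewhere had a median of 0.05. A fall of 2 of 2 chromosome 7 genes of the response is thus near the background of that chromosome.

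By size, Atf5 stood far down among its neighbours and Ppp1r15a nearer their middle. Atf5 was 0.64 below the chromosome 7 median, and 89 of the 1134 other tested genes of the chromosome, 7.85%, had a lower log2 change. Within 1 Mb of Atf5, 51 of 81 tested genes were lower, with a median of −0.44, and 10 of the 81 had a log2 change below that of Atf5. Ppp1r15a was 0.24 below the chromosome's median, and 314 of the other genes, 27.7%, had a lower log2 change. Within 1 Mb of it, 50 of 78 genes were lower, with a median of −0.50, and 32 had a log2 change below its own. Without both genes, 6 of the 8 remaining stress response genes were lower, 1 was higher and 1 did not pass, and their median was −0.76. Of the 14281 tested genes not on chromosome 7, 3723 were lower and 4835 higher, with a median of 0.05. The part of the chromosome-wide fall in the values of Atf5 and Ppp1r15a was not tested.

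**Figure D3:**
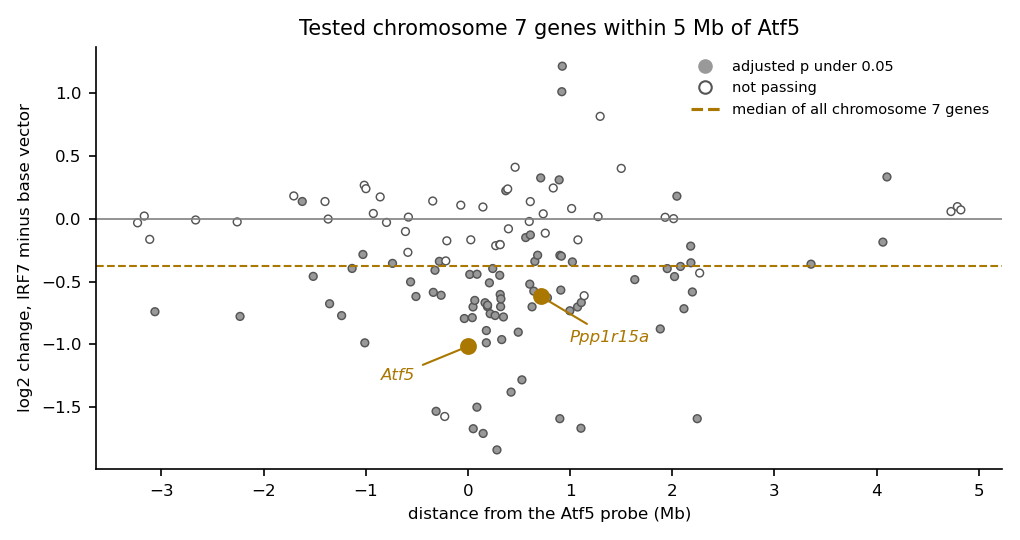
Log2 change, IRF7 minus base vector (vertical axis), of tested chromosome 7 genes within 5 Mb of the Atf5 probe (horizontal axis, distance in Mb); filled points passed the adjusted threshold of 0.05. Most genes around Atf5 and Ppp1r15a lie below 0; Atf5 (−1.02) is among the lower ones and Ppp1r15a (−0.62) is nearer the dashed chromosome median of −0.38.

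Upstream of Atf4, the 4 kinases that phosphorylate eIF2 did not move together. Eif2ak2, which encodes PKR, the kinase that senses double-stranded RNA and is itself induced by interferon, had levels of 0.98, 0.93 and 0.95 in the base vector arrays and 3.15, 3.11 and 3.13 in the IRF7 arrays. It was far higher in all IRF7 arrays, by 2.18 (SE 0.029, 4.52-fold, limma adjusted p 5.18e-07). Eif2ak3, which encodes PERK, the kinase of the endoplasmic reticulum, had levels of 0.19, 0.09 and 0.27 against −0.29, −0.18 and −0.22. It fell by 0.41 (SE 0.057, 1.33-fold lower, limma adjusted p 0.00141), but not without scaling, where the adjusted p was 0.123. Eif2ak1 and Eif2ak4, which respond to heme shortage and to uncharged tRNA, both had a log2 change of −0.03. Neither passed, with limma adjusted p-values of 0.501 and 0.526. The other probes had changes of 0.22 and 0.08 for Eif2ak1, and of −0.17 and −0.05 for Eif2ak4.

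Of 13 genes for eIF2 and eIF2B subunits and for regulators of the eIF2 phosphatase and kinases, 12 were tested. There 5 were higher, 3 lower and 4 did not pass, with a median of 0.05. For this list and those below, the shares over all genes were 29.1% lower and 31.9% higher. Eif2s1, the alpha subunit that the kinases phosphorylate, rose by 0.55 (SE 0.052), Eif2b1, a subunit of its exchange factor, by 0.36 (SE 0.031), and Ppp1r15b, the constitutive counterpart of Ppp1r15a, by 0.33 (SE 0.038). Dnajc3, a chaperone that inhibits eIF2 kinases, fell by 0.20 (SE 0.038), and its other probes had changes of −0.22, −0.09 and −0.08. The limma adjusted p of these 4 genes was at most 0.00496, and Dnajc3 did not pass on slide 1 alone, with slide as a block, with median centring or without scaling.

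Atf4 acts as a dimer, and 9 of 10 leucine zipper partners were tested. There 4 were higher, 3 lower and 2 did not pass, with a median of 0.11. Batf3 rose by 1.01 (SE 0.032), Fos by 0.91 (SE 0.053) and Jun by 0.26 (SE 0.031). Cebpg, a partner of Atf4 at amino acid genes, fell by 0.62 (SE 0.039) and its other probes had changes of −0.68 and −0.59; it lies on chromosome 7. The limma adjusted p of these 4 genes was at most 0.000892, and Jun did not pass with median centring.

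The amino acid genes around Asns and Psat1 were mixed. Of 7 enzymes of serine, glycine and one-carbon metabolism, 3 were lower, 2 higher and 2 did not pass, with a median of 0.01. Aldh1l2 fell by 0.40 (SE 0.031) and Mthfd2, the mitochondrial folate enzyme, by 0.26 (SE 0.065). Mthfd1l rose by 0.30 (SE 0.038) and Shmt1 by 0.27 (SE 0.040). The other probes of Aldh1l2 and Shmt1 had changes of −0.29 and 0.13. All 4 genes passed with a limma adjusted p of at most 0.0169, and each lost its call under centring on the median or without scaling. Mthfd2 also lost it with slide as a block (adjusted p 0.117) and on slide 1 alone (adjusted p 0.115).

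Of 5 tested enzymes of proline, aspartate, alanine and sulfur amino acid metabolism, 3 were lower, 1 higher and 1 did not pass, with a median of −0.15. Gpt2, an alanine aminotransferase, fell by 0.85 (SE 0.040), and Pycr1 and Aldh18a1, both of proline synthesis, fell by 0.53 (SE 0.046) and 0.15 (SE 0.040). Got1, an aspartate aminotransferase, rose by 0.57 (SE 0.035), and Cth, of cysteine synthesis, did not pass. The limma adjusted p of these 4 genes was at most 0.0208, and Aldh18a1 lost its call on slide 1 alone, with slide as a block, with median centring, without scaling, and when base vector replicate 1 or 3 or IRF7 replicate 1 or 2 was left out (adjusted p 0.0571 to 0.0645 in these 4).

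Amino acid transporters numbered 9 tested of 10. There 5 were lower, 2 higher and 2 did not pass, with a median of −0.17. Slc1a4, a carrier of neutral amino acids, fell by 0.84 (SE 0.038), the glycine carrier Slc6a9 by 0.57 (SE 0.035), and Slc3a2, the shared heavy chain of several exchangers, by 0.50 (SE 0.031). Slc7a3, a carrier of cationic amino acids, rose by 0.64 (SE 0.11). The limma adjusted p of these 4 genes was at most 0.00334.

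All 12 aminoacyl-tRNA synthetases known as Atf4 targets were tested. By the brightest probe of each gene, 6 were lower, 2 higher and 4 did not pass, with a median of −0.09. Cars, on chromosome 7, fell by 0.54 (SE 0.060), Sars by 0.22 (SE 0.035) and Gars by 0.15 (SE 0.029), while Wars, which interferon also induces, rose by 0.52 (SE 0.033), with limma adjusted p-values of at most 0.00513. The lower count was 1 with median centring or without scaling, where Sars and Gars did not pass. Over all genes, 23.1% were lower with median centring and 11.03% without scaling. Of 9 other cytosolic synthetases, 2 were lower, 4 higher and 3 did not pass, with a median of −0.02. Farsa rose by 0.34 (SE 0.034), Farsb by 0.24 (SE 0.044) and Hars by 0.11 (SE 0.031), and Qars fell by 0.17 (SE 0.035), with limma adjusted p-values of at most 0.0247; of these only Farsa kept its call in all 20 settings. Hars lost it, among others, without base vector replicate 2 or 3 or IRF7 replicate 1 or 3 (limma adjusted p 0.0515 to 0.0808). The other probe of Hars had a change of 0.41, and the other probes of Qars had changes of −0.31 and 0.31.

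Among 18 other stress-induced targets, 14 were tested and all 14 passed, against 61% of all genes. Of the 14, 8 were lower and 6 higher, against 29.1% and 31.9% of all genes, with a median of −0.50. Bbc3, which encodes the death-promoting protein PUMA, had levels of 2.09, 2.06 and 2.11 in the base vector arrays and 0.65, 0.68 and 0.66 in the IRF7 arrays. The IRF7 arrays were all lower, and Bbc3 fell by 1.42 (SE 0.028, 2.68-fold lower, limma adjusted p 1.57e-06). Nupr1, a stress-induced chromatin protein, fell by 0.88 (SE 0.042, limma adjusted p 2.55e-05). Both genes lie on chromosome 7. The cell cycle inhibitor Cdkn1a had levels of −1.64, −1.57 and −1.54 in the base vector arrays and −0.13, −0.16 and −0.07 in the IRF7 arrays. It rose by 1.46 (SE 0.041, 2.76-fold higher, limma adjusted p 4.43e-06), and Gadd45b, a growth arrest gene, rose by 0.75 (SE 0.038, limma adjusted p 3.16e-05). For Gdf15, Fgf21, Vldlr and Stc2, no array gave a signal well above background.

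Of 13 chaperones and sensors of the unfolded protein response, which shares its PERK branch with the integrated stress response, 3 were lower, 6 higher and 4 did not pass, with a median of 0.10. Xbp1, the factor of another branch, had levels of 2.41, 2.39 and 2.41 in the base vector arrays and 1.47, 1.52 and 1.56 in the IRF7 arrays. All IRF7 arrays were lower, and Xbp1 fell by 0.89 (SE 0.032, 1.86-fold lower, limma adjusted p 1.00e-05). Atf6, the sensor of the remaining branch, rose by 0.59 (SE 0.031, limma adjusted p 3.61e-05). The folding factor Creld2 rose by 0.35 (SE 0.035) and Pdia4, a protein disulfide isomerase, fell by 0.48 (SE 0.058), with limma adjusted p-values of at most 0.000819.

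**Figure D4:**
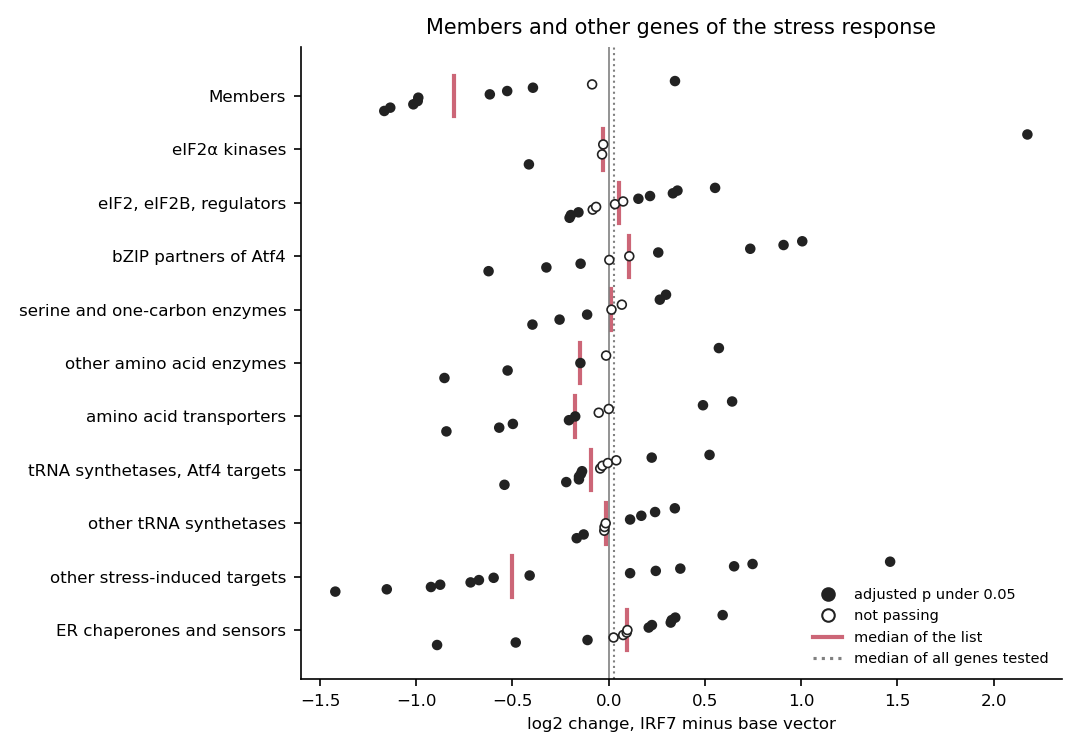
Log2 change, IRF7 minus base vector (horizontal axis), of each tested gene in the 10 stress response genes and in 10 lists of related genes (1 line each, points offset vertically for legibility); filled points passed the adjusted threshold of 0.05, red bars are list medians and the dotted line is the median of all genes (0.03). The members' median of −0.80 is the lowest, followed by that of other stress-induced targets (−0.50), and the other list medians lie between −0.17 and 0.11.

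The medians of the kinases (−0.03), the synthetases (−0.09 and −0.02), the transporters (−0.17) and the proline, aspartate, alanine and sulfur amino acid enzymes (−0.15) turned above 0 without scaling, and that of the serine enzymes (0.01) turned below 0 with quantile normalization or median centring. No direction is given for these lists as wholes. The medians of the 10 genes and of the other stress-induced targets stayed below 0 under each scaling, between −0.85 and −0.60 and between −0.55 and −0.31.

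Over the related lists, TGATGNAA was found in the windows of 5 of 9 synthetases known as Atf4 targets (Aars, Gars, Iars, Tars and Yars) and of 0 of 5 other synthetases. It was found for 4 of 15 other stress-induced targets, among them Nupr1 and Herpud1, for 2 of 7 transporters, Slc1a4 and Slc7a11, for 2 of 5 proline, aspartate, alanine and sulfur amino acid enzymes, Got1 and Pycr1, for 1 of 9 eIF2 and eIF2B genes, Eif2s3x, and for 1 of 9 leucine zipper partners, Jdp2. Of the 15 genes with a match in these lists 13 were tested, and 8 were lower, 3 higher and 2 did not pass. Over all genes tested, 29.1% were lower and 31.9% higher. The higher ones were Got1, Tars (0.22, SE 0.044) and Eif2s3x (0.21, SE 0.054), and Aars (−0.03) and Iars (−0.004) did not pass. These calls rest on the brightest probe. The other probes had changes of −0.43 and −0.51 for Aars, −0.18 for Iars, −0.01 for Tars and 0.19 and 0.31 for Eif2s3x. For the eIF2 kinases it was found in 0 of 4, for the serine enzymes in 0 of 6 and for the chaperones in 0 of 10, against 3.97% of all windows. Differences between the lists were not tested, and the genes with a match were named after the search.

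Markers of other cell types were also read. The summed scaled signal (2 to the power of the level) of 4 tested of 8 immune markers was 0.647 to 0.720 with the base vector and 0.674 to 0.741 with IRF7, and none of the 4 passed the limma threshold. Csf1r was well above background on 0 base vector and 3 IRF7 arrays, but its levels of −5.01, −5.11 and −5.23 against −5.09, −4.37 and −5.10 overlapped, and it did not pass (limma adjusted p 0.322). Of 6 fibroblast and endothelial markers 4 were tested, 2 lower and 1 higher, and their summed scaled signal was 5.65 to 5.78 with the base vector and 2.58 to 2.68 with IRF7. Such a sum is set mainly by its brightest probe, here that of Pdgfra, a mesenchymal growth factor receptor. Pdgfra had levels of 2.46, 2.45 and 2.48 against 1.26, 1.22 and 1.28, and it fell by 1.21 (SE 0.030, limma adjusted p 3.09e-06). Cdh5, an endothelial cadherin, was above background on all 6 arrays and rose by 1.06 (SE 0.039, 2.08-fold higher, limma adjusted p 1.07e-05). Pdgfrb, a relative of Pdgfra, was well above background in no IRF7 array and at least 2.85-fold lower there (limma adjusted p 5.36e-06), while Col1a1 and Pecam1 were above background on no array. The 4 tested epithelial markers summed to 335 to 354 with the base vector and 342 to 357 with IRF7. That sum was set mainly by Krt18 and Krt8, with mean levels of 7.78 and 6.96 in the base vector arrays. Of the 4 markers, 2 were higher and 2 did not pass. Epcam was dim and rose 2.29-fold, from a mean level of −4.17 to −2.98 (limma adjusted p 0.0017). Krt8 rose by 0.15 (SE 0.032, limma adjusted p 0.00986). The part of these markers in the changes of the stress response genes was not tested. In bulk RNA, fewer cells of a kind and less RNA per cell cannot be told apart.

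Across the 6 arrays, the genes whose levels ran most like those of Atf4 were Tle4, Pcmtd2 and Herpud1, with Pearson r of 0.9998, 0.9997 and 0.9997 among 15412 genes. Their log2 changes were −0.80, −0.55 and −0.60. Herpud1, a protein of the endoplasmic reticulum that takes part in protein degradation, is in the list of other stress-induced targets. As the arrays form 2 groups, r mainly follows the difference between groups, and 3714 genes had an r above 0.9. Atf5 ranked 152, Asns 162, Trib3 246, Sesn2 265, Ddit3 324 and Chac1 471 in that order, while Ppp1r15a ranked 2623 (r 0.958) and Psat1 5040 (r 0.719), and Atf3 had an r of −0.993.

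**Figure D5:**
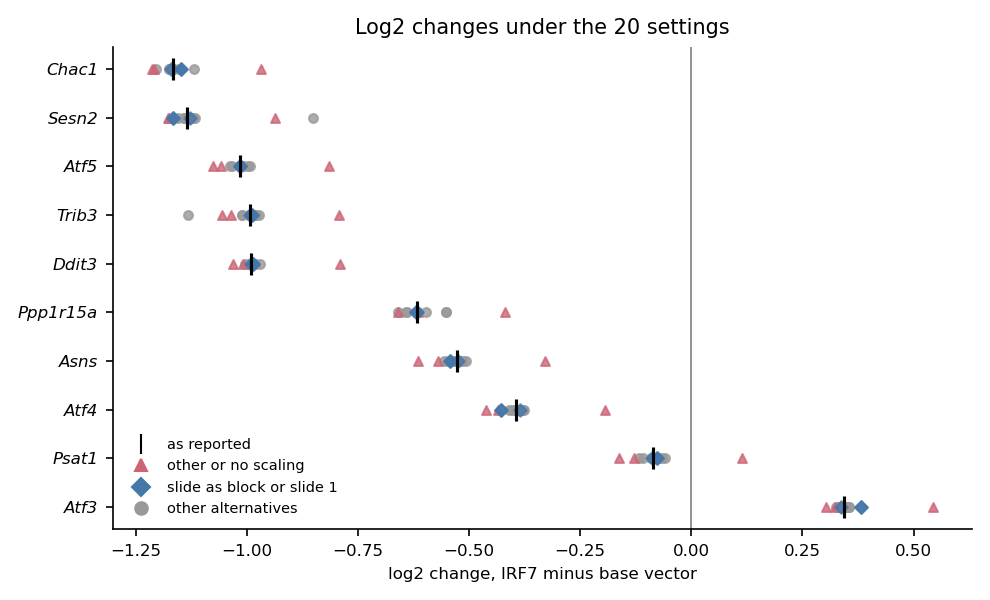
Log2 change, IRF7 minus base vector (horizontal axis), of the 10 genes under the 20 settings run; the black bar is the value as reported, triangles are other scalings or none, diamonds are slide as a block or slide 1 alone, and grey points are the other alternatives. Chac1 lies between −1.21 and −0.97 and Atf3 between 0.30 and 0.54, and only Psat1 has values on both sides of 0.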

How the data were processed

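RNA of 6 cultures was labelled with Cy3 and hybridised to single-colour mouse arrays. The deposited scanner files come, per the file headers, from Agilent Feature Extraction 9.5.3.1. Their processed signal is a linear intensity per spot from which background was subtracted, without scaling across arrays. The value table the authors deposited holds the same intensities (largest difference 0, column medians 56.5 to 79.0) and served as the alternative without scaling. Positions are on mm7, per the file headers; exon and UTR annotation on that build was not used here. Of 45018 spots per array, 1639 controls and 111 to 121 flagged spots were left out; 1 spot was saturated, on 1 array, and was none of the probes described. The number of arrays limits the precision.

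Probes were named by accession (23082), symbol (6582) or older symbol (3073) through RefSeq's gene table for GRCm38.p6, used for names only, and otherwise as in the files (8437). Levels were log2 of the processed signal minus the array's 75th percentile. The filter kept the 23522 probes that 3 or more of the 6 arrays read well above background, and the brightest stood for its gene. The test was limma 3.58.1 in R 4.3.3 (lmFit and eBayes, IRF7 against base vector, 6 arrays, 4 residual and 1.64 prior degrees of freedom) with Benjamini-Hochberg adjustment; second probes come from the same fit over all probes kept. Where only 1 group was above background, the fold is a lower limit, taken against the dim group's mean of the array's lowest signal well above background or the probe's own signal, whichever was higher. Tables and plots were made in Python 3.11.15 (pandas 2.3.3, matplotlib 3.10.9).

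The 10 genes, the lists and the tests were chosen with earlier results of these data known. Named were the 10 genes, Irf7, the 3 genes most like Atf4 and up to 4 members of each pathway list with the smallest p. List members above background in 1 group only or on no array could also be named. Cth, the genes with a promoter match and cell type markers were named outside these rules. The test was also run on simulated data, with 50 genes changed per size among 15413. There 30% of genes with a log2 change of 0.25 were called, 76% of those with 0.5, 84% with 1 and 92% with 2. In all, 4 calls were false. Far fewer genes changed there than the 61% that passed in the data. The adjustment is stricter when few genes change, so these rates are not the call rates of the data. The alternatives were normexp background correction (offset 50), quantile normalization, median centring, no scaling, no filter or a filter on all 6 arrays, other probe rules, a trended and robust eBayes, slide as a fixed or random block or slide 1 alone, a replicate block and each array left out in turn. For Atf5 and Ppp1r15a the change relative to the chromosome 7 median was also taken, as a value with no test.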

Additional observations from a re-analysis of the deposited data

How the results depend on the processing

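Under 19 alternatives, 8 of the 10 genes were lower and Atf3 higher in each, with 2 exceptions: with quantile normalization 9 were lower, Psat1 included, and without scaling 7, as Atf4 no longer passed. With each array left out in turn 8 were lower. The share of all genes that were lower moved too, from 29.1% as reported to 32.2% with quantile normalization and 11.03% without scaling. It was 23.1% with median centring and 25.7 to 27.7% with each array left out, so the counts stand against different backgrounds. Psat1 turned to 0.11 without scaling. Of the other genes named, Eif2ak1 turned to 0.16 without scaling, 0.091 with the mean of all its probes and ran from −0.064 to 0.0030 with each array left out, and Eif2ak4 to 0.17 without scaling and 0.022 with slide as a block or slide 1 alone; neither passed as reported. Without scaling Aldh18a1 turned to 0.052, Gars to 0.044 and Qars to 0.033, and none of the 3 passed there. The causes were not tested. Averaging probes moved Sesn2 to −0.85 and Trib3 to −1.13. Relative to the chromosome 7 median, a value with no test beside the 19 alternatives, Atf5 moved from −1.02 to −0.64 and Ppp1r15a from −0.62 to −0.24.

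Counts over the array moved more. As reported, 9398 of 15416 genes passed, 52.3% of these as higher. Without a filter on dim probes 14500 of 27666 passed and 32.8% were higher, and without scaling 8143 passed, 79.1% higher, as the median of all genes shifted from 0.03 to 0.23. Of the list counts under the alternatives, 52 moved by over 1.5 times and 442 did not. Of the 52, 11 moved with median centring. The fit with the replicate number as a block gave 9737 genes and again 8 lower and 1 higher of the 10. There 30.4% of all genes were lower. Deviations of arrays with the same number had correlations of 0.045, 0.18 and 0.23; each array correlated best with its own number, a hint from the data. As the labels do not say that a number marks an experiment, and 1 of the 3 correlations was near 0, the numbers were not taken to pair the arrays. Genes whose probes were well above background on fewer than 3 arrays were not tested.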
